A study of Mus musculus with 8 samples.

Results

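The cytosolic ribosomal protein genes were followed in CD11b+ bone marrow (BM) cells of mice educated with pancreatic cancer extracellular vesicles (PC-EVs) and of PBS mice. Members were chosen by name alone, as symbols of the form Rpl or Rps with a number and, in some, a closing a, x, l, l1 or y, together with Rplp0, Rplp1, Rplp2 and Rpsa. This rule found 82 genes among the 41018 genes of the table, 51 of the large subunit and 31 of the small subunit. Of these, 76 were core genes, and 6 carried a name ending in l or l1 and were treated as paralogs of the gene with the same number.

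The series holds 8 libraries, 4 from PC-EV-educated mice and 4 from PBS mice. PC-EV-educated animals received 5 µg of EVs of the PAN02 mouse pancreatic cancer line by retro-orbital injection 3 times per week for 3 weeks, and the other group received PBS per the treatment protocol, while the treatment label of its samples reads untreated. All animals were female C57BL/6 mice 5 to 8 weeks old, and whether the sequenced samples were pools of mice, as the study's qPCR samples were, is not said. Cells were flushed from femurs and tibiae, red cells were lysed and CD11b+ cells, mostly neutrophils and monocytes in BM, were isolated with magnetic beads. Total RNA was depleted of ribosomal RNA before sequencing.

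The value reported for each gene is the larger of its 2 group means, named its level here. The level has no SD and no n, and the columns of the authors' own comparison, which would show the group it came from, were not used, so PC-EV-educated and PBS mice are not compared. The level behaved as a value per kb of exon and per 1000000 fragments. Its sum after multiplication by exon length, over the genes with an exon length, was 770011. This was below 1000000, and the reason was not tested. Multiplied by exon length, the lowest levels in the table fell on 8 recurring steps, as 1 fragment in 1 of 8 libraries would, and the steps gave library totals of about 42200000 to 53500000 fragments. Levels can thus be compared between genes per length of annotated exon, but the levels of 2 genes may come from different groups. A difference between genes also has no replicate check.

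The highest level in the table was that of the non-coding RNA Rn7sk, with 48720, and among protein-coding genes neutrophil transcripts led. S100a9, a calcium-binding protein of neutrophils, had a level of 42151, and S100a8, its partner, had 19134. The monocyte genes Ly6c2 and Csf1r had levels of 189 and 40.6. The B cell gene Cd79a had 1.78, the T cell gene Cd3e had 0.109 and the NK cell gene Ncr1 had 0.560. Itgam, which encodes CD11b, was not analysed here. In bulk cells, fewer cells of a type and less RNA per cell cannot be told apart, and this holds for every level below.

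Ribosomes translate mRNA with a small subunit, which reads the message, and a large subunit, which joins the amino acids. Each core protein is normally present in 1 copy per ribosome, apart from the stalk proteins Rplp1 and Rplp2, so the genes are often treated as a unit. In mammals their mRNAs typically begin with a pyrimidine tract that places translation under mTOR, the growth-regulating kinase, through the tract-binding protein Larp1. Many of the genes also host small nucleolar RNAs in their introns and have left large numbers of processed copies in the genome.

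All 76 core genes were detected, with a median level of 67.4. Rpl27, a large-subunit protein, was the lowest with 3.94 and Rps29, a zinc-binding small-subunit protein, was the highest with 271. The core median lay at the 98.4th percentile of the 28225 genes above 0, and 75 of the 76 core genes exceeded the 90th percentile of those genes, a level of 10.8. The exception was Rpl27. Across all 41018 genes, 22.5% had a level of at least 1, against 79 of the 82 members.

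The core genes were not level with each other. Their 90th percentile was 6.99 times their 10th, and the SD across the 76 genes was 72.6% of the mean. A level of at least 100 was reached by 21 core genes, and 15 were under 30. The highest 10 spanned 148 to 271, while the lowest 10 core genes were all at or under 24.2, the level of Rpl10.

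**Figure D1:**
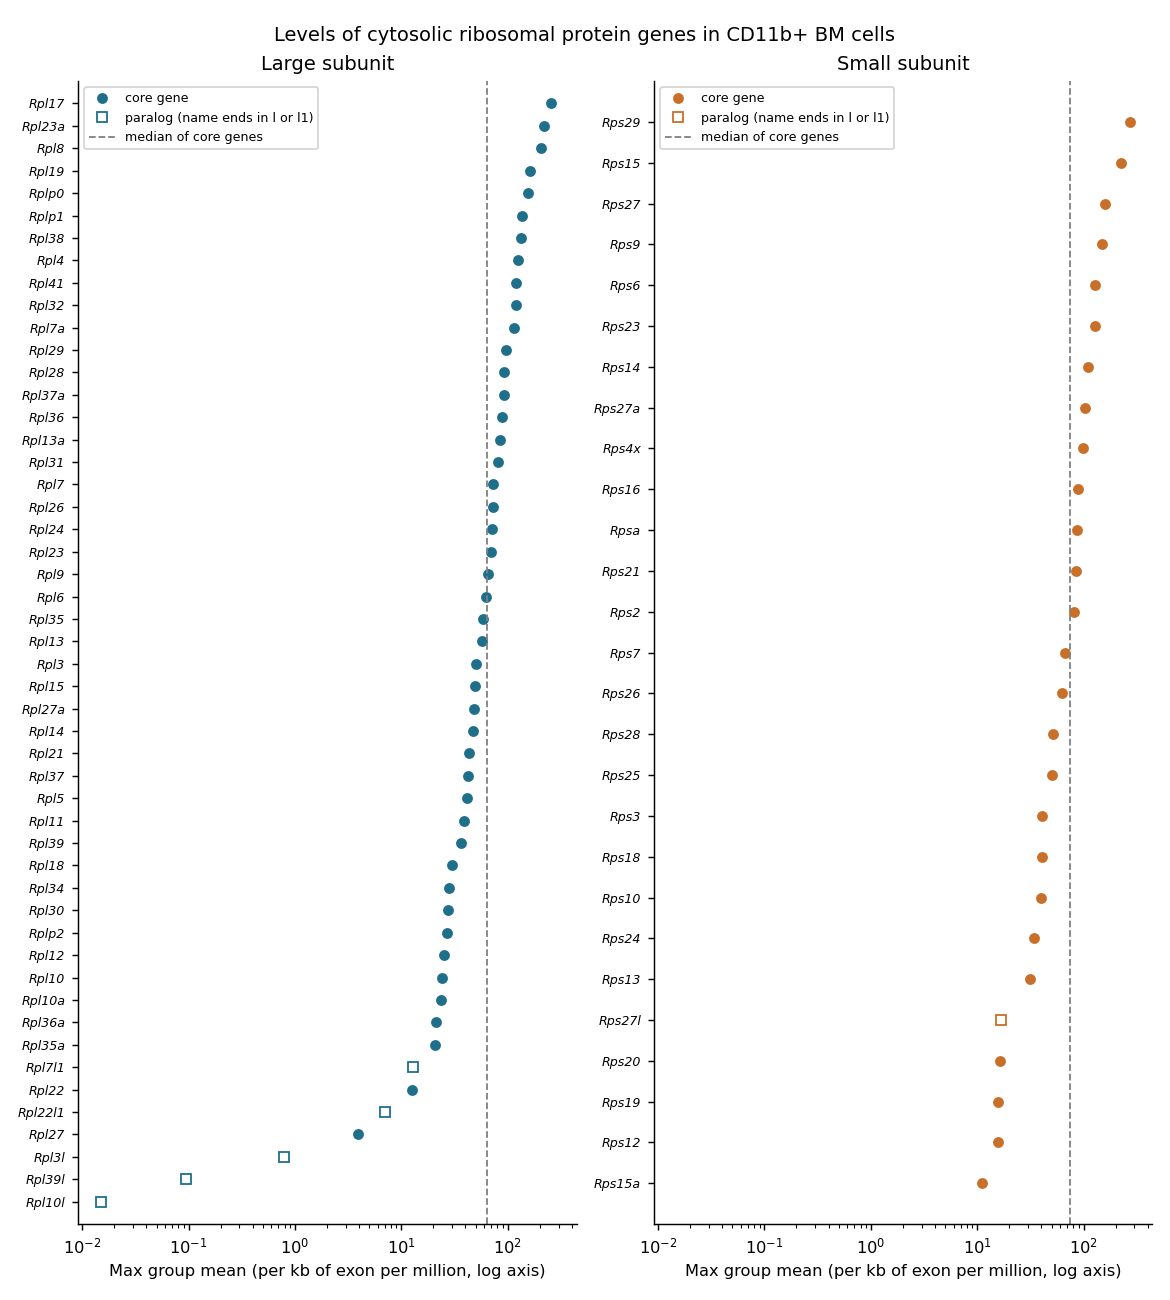
Level of 77 of the 82 members, with large-subunit genes in the left panel and small-subunit genes in the right, on a log axis of the larger group mean per kb of exon per 1000000 fragments. Filled circles are core genes, open squares are paralogs and the dashed line is the core median (64.1 for all large core genes, 74.6 for all small core genes). Core genes of both panels cover overlapping ranges, and Rpl3l, Rpl39l and Rpl10l lie below every core gene drawn.

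As a group, the 82 members held 1.52% of the summed level of the table in 0.200% of its genes. Their share of the level multiplied by exon length, which follows fragments, was 1.33%. The 10 most abundant genes of the table, 5 protein coding and 5 not, held 51.7% of the summed level, and without them the members' share was 3.16%. Of the summed level of protein-coding genes alone, the members held 2.26%. The members' own sum was divided into 58.3% from large-subunit genes and 41.7% from small-subunit genes.

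Large- and small-subunit genes had similar levels. The 46 large core genes had a median level of 64.1 with quartiles of 36.9 and 109, against a median of 74.6 with quartiles of 40.7 and 108 in the 30 small core genes. The ratio of the large to the small median was 0.859. In 7 other ways of setting large against small genes, some by means of log2 levels instead of medians, the ratio lay between 0.838 and 0.917. Of the 10 highest core genes, 5 belonged to the large subunit and 5 to the small. The 10 lowest core genes comprised 6 of the large and 4 of the small subunit. Genes are not replicates, so this ratio is a description with no test.

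The highest member was Rps29 (chr12:69157722-69159186, minus strand, GRCm38, protein coding), with a level of 271. Rpl17, which lines the tunnel through which the new peptide leaves, had 254 (chr18:75000477-75003381, plus strand). Rps15, at the head of the small subunit, had 223 (chr10:80292453-80294114, plus strand). These were followed by Rpl23a, a docking site for nascent-chain factors at the tunnel exit, with a level of 219. Rpl8, which lies near the catalytic center of the large subunit, had a level of 205.

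The 10 highest also included Rpl19 with a level of 163, Rps27 with 160, Rplp0 with 155 and Rps9 with 148. Rpl19 forms a bridge between the subunits, Rps27 carries a zinc finger and Rps9 lies by the channel through which mRNA enters. Rplp0 is the base of the stalk that recruits elongation factors. The leading genes thus came from both subunits and from several sites of the ribosome.

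The 10 lowest members included 5 of the 6 paralogs. The other 5 were core genes, with levels of 3.94 for Rpl27, 11.0 for Rps15a, 12.7 for Rpl22, 15.5 for Rps12 and 15.6 for Rps19. Rpl22 is dispensable for most translation but needed for alpha-beta T cell development in mice, and RPS19 is the gene most often mutated in Diamond-Blackfan anemia, a human failure of red cell production. Rpl27 lay at chr11:101442298-101445529 (plus strand), Rps15a at chr7:118104372-118116188 (minus strand) and Rps12 at chr10:23785183-23787275 (minus strand).

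Within the stalk, Rplp0 had a level of 155, Rplp1 had 135 and Rplp2 had 26.9. The gap between the dimer partners Rplp1 and Rplp2 was seen only per length of all annotated exons, since per length of the main transcript, a scale chosen after seeing the data, Rplp1 stood at 135 and Rplp2 at 132. The pair that binds 5S ribosomal RNA and holds back Mdm2 when assembly fails had levels of 41.3 for Rpl5 and 38.4 for Rpl11, but stood at 79.1 for Rpl5 and 124 for Rpl11 per main transcript. The pair near the mRNA entry had levels of 80.7 for Rps2 and 40.8 for Rps3, and stood at 148 and 96.0 per main transcript.

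The 7 members around the tunnel exit had a median level of 80.2. They ran from 36.4 for Rpl39 through 58.4 for Rpl35, 72.1 for Rpl26, 80.2 for Rpl31, 163 for Rpl19 and 219 for Rpl23a to 254 for Rpl17. Parts of 1 ribosomal site therefore differed widely in level, though core genes lower than Rpl39 lay outside their range. Per main transcript, these members ran from 76.6 for Rpl35 to 435 for Rpl17.

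The 7 members whose human genes are mutated in Diamond-Blackfan anemia and that had been listed for it had a median level of 39.4. Rps7 had a level of 66.3, followed by Rps26 with 62.1, Rps10 with 39.4, Rps24 with 34.4, Rpl35a with 20.7 and Rps19 with 15.6. Each of these named genes lay below the median of all 76 core genes, but per main transcript Rps10 stood at 183, above the core median of 164 on that scale. Rps14, whose human gene is lost in the 5q- syndrome, had a level of 110.

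Other members of listed roles had the following levels. Rps6, the substrate of the S6 kinases, had a level of 128. Rpl38, needed for translation of a subset of Hox mRNAs in mice, had 134. Rps27a, which is made as a fusion with ubiquitin, had 103. Rpsa, also known as the laminin receptor, had 85.8. Rpl13a, which leaves the ribosome to silence inflammatory mRNAs in the GAIT complex of human monocytes, had 84.9.

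The 6 paralogs covered a far wider range than the core genes. Rps27l, which p53 can induce, was the highest with a level of 16.7, or 10.5% of the 160 of Rps27. Rpl7l1 had 12.9, or 17.8% of the 72.4 of Rpl7. Rpl22l1 had 7.01, or 55.2% of the 12.7 of Rpl22, the highest share of the 6.

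The other paralogs are known from particular tissues. Rpl3l, which replaces Rpl3 in heart and skeletal muscle, had a level of 0.788, or 1.55% of the 50.7 of Rpl3. Rpl39l, a paralog used in male germ cells, had 0.0950, or 0.261% of the 36.4 of Rpl39. Rpl10l, an intronless copy that stands in for X-linked Rpl10 during male meiosis, had 0.0149, or 0.0618% of the 24.2 of Rpl10. These 3 were the members under a level of 1.

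The lowest levels rested on few fragments. The level of Rpl10l came to about 3 fragments in the 4 libraries of a group, and an exact Poisson interval (95%) on that number put Rpl10 554 to 7852 times higher. The level of Rpl39l came to about 15 fragments, and the same interval put Rpl39 232 to 685 times higher. Both intervals cover counting error only, of the paralog alone. They leave out the choice of the larger group mean, which can raise a low count, and the copies of the parent. With the identical copy Rpl10-ps3 added to Rpl10, the ratio to Rpl10l was 15821, outside the interval.

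Divided by the length of the main transcript instead of all annotated exons, a setting chosen after seeing the data, Rpl22l1 stood at 32.4% of Rpl22 and Rps27l at 5.65% of Rps27. The order of paralog and parent was the same for all 6 pairs on this scale.

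**Figure D2:**
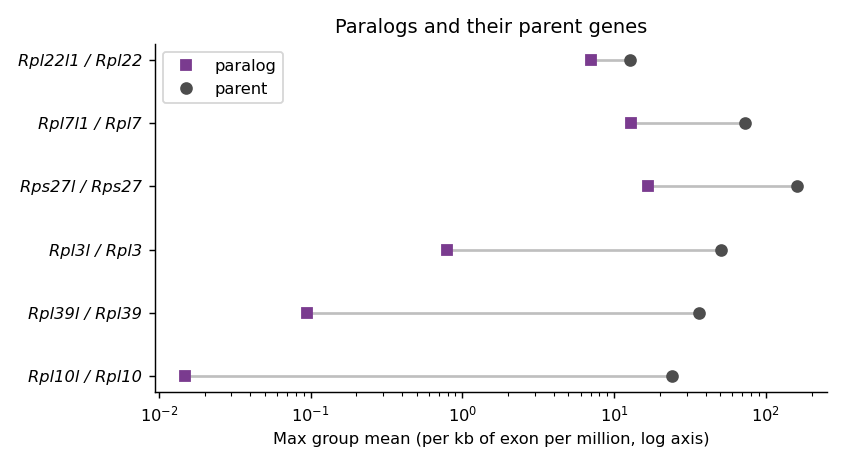
Level of each paralog (squares) and of its parent (circles), on a log axis of the larger group mean per kb of exon per 1000000 fragments. Each paralog lies left of its parent, from 55.2% of it for Rpl22l1 to 0.0618% for Rpl10l.

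A more similar coding sequence did not go with a higher level of the paralog. Coding sequences of paralog and parent were identical at 85.3% of aligned bases for Rpl39l, 84.8% for Rpl10l, 76.1% for Rps27l, 74.9% for Rpl3l, 72.7% for Rpl22l1 and 64.9% for Rpl7l1. The 2 pairs with the most similar coding sequences had the lowest paralogs. Rpl39 and Rpl39l, the shortest pair, are printed whole from the GENCODE transcripts to show how the reads of such a pair can be separated, with the 23 of 156 bases that differ in capitals.
Rpl39: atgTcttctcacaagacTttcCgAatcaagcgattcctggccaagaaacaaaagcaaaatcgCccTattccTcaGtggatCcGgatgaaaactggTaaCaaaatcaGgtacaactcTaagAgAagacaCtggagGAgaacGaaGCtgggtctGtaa
Rpl39l: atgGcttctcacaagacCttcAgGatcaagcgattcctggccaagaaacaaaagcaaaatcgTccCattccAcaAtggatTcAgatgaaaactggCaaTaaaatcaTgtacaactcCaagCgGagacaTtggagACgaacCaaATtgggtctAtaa
The differing bases were spread along the whole length, with 1 longer identical stretch towards the 5′ end. Rpl39 lies on the X chromosome and Rpl39l on chromosome 16.

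Most members shared sequence with other genes. Of the 82 members, 73 shared at least 1 window of 100 identical bases with the transcript of another annotated gene, and in 32 members over 50% of all windows were shared. The 468 pairs of a member and a gene sharing its sequence included 25 whose second gene had a level here, and the other 443 were not analysed here. No source used here says how fragments matching several genes were assigned.

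In 3 pairs, the copy had a higher level than the member. Rpl27-ps3 had a level of 138 (chr18:6332590-6333064), against 3.94 for Rpl27, or 35.0 times as much. Rps12-ps3 had 202 (chr19:59322290-59322783), against 15.5 for Rps12, or 13.0 times as much. Rpl10-ps3 had 212 (chr9:50344201-50344968), against 24.2 for Rpl10, or 8.77 times as much. Each copy was identical to its member over the whole coding sequence, of 411 bases for Rpl27, 399 for Rps12 and 645 for Rpl10. Fragments from the coding part of such a pair cannot be told apart by sequence.

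With the copy added to its member, the level was 142 for Rpl27, 218 for Rps12 and 236 for Rpl10. Rpl27 and Rps12 were among the lowest core genes on their own, and with the copies added both lay above the core median. In the other 22 pairs the gene sharing sequence was lower than the member and had a level of at most 4.97. In 2 of these, Gm45713 with Rpl13a and Gm28037 with Rpl24, it overlapped the member's own locus and was no separate copy. All 9 genes named as a pseudogene of a member had a summed level of 552, or 8.96% of the summed level of the 82 members.

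**Figure D3:**
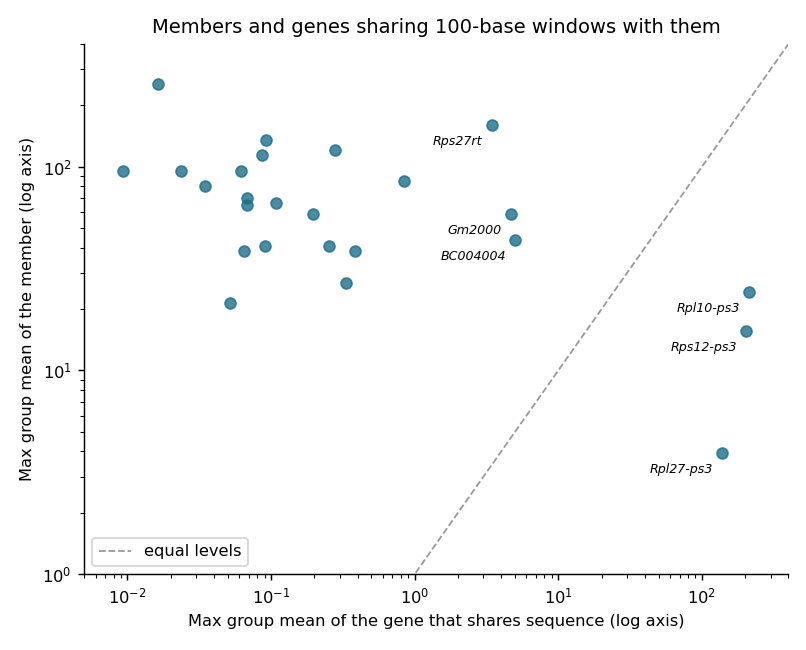
Level of a member (vertical) against the level of a gene that shares at least 1 window of 100 identical bases with it (horizontal), for the 25 pairs in which both had a level, on log axes of the larger group mean per kb of exon per 1000000 fragments. The dashed line marks equal levels. Rpl10-ps3, Rps12-ps3 and Rpl27-ps3 lie right of it and the other 22 points left of it.

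Sharing alone did not go with a low level. Over the 76 core genes, the Spearman correlation of the level with the share of windows found in other genes was -0.11. Rps27 shared 98.4% of its windows and had a level of 160, and Rpl23a shared 80.0% with a level of 219. Rpl22 shared none and had 12.7. The points share all libraries, and genes are not independent replicates.

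The level was lower in genes with more annotated exon sequence. Over the 76 core genes, its Spearman correlation was -0.66 with the summed length of all annotated exons, -0.0013 with the length of the main transcript and 0.13 with coding length. Exon length is the divisor of the level, so the first value is partly built in. The level multiplied by exon length had a correlation of 0.07 with exon length.

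**Figure D4:**
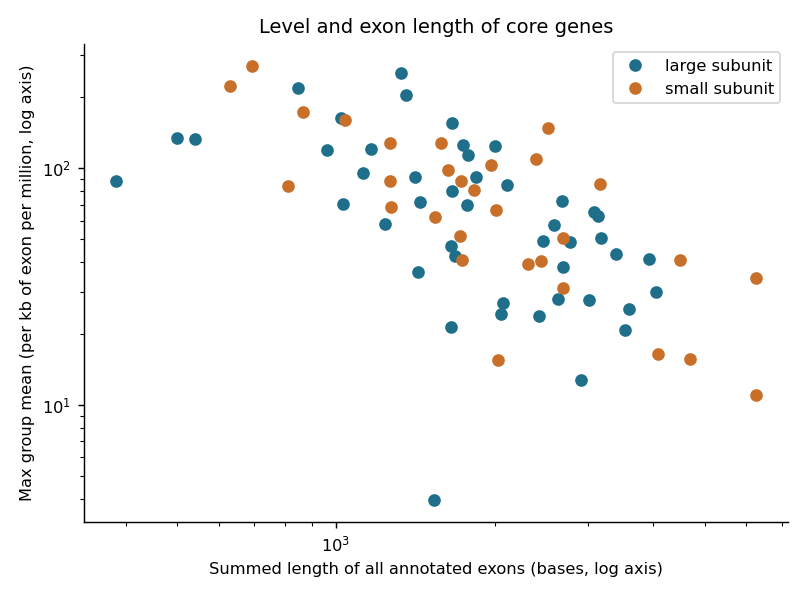
Level against the summed length of all annotated exons for the 76 core genes, on log axes, with large- and small-subunit genes in 2 colors. Levels fall with exon length (Spearman correlation -0.66) in a band that both subunits fill.

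Some of the lowest genes had many annotated exons beyond the main mRNA. Rps15a had 6270 bases of exon against a main transcript of 640 bases, and its level of 11.0 became 108 per length of that transcript. Rps19 had 4685 bases of exon against 633, and its 15.6 became 116. Rpl27 had 1535 bases against 614, and its 3.94 became 9.86, still the lowest of the core genes. Per main transcript, a scale chosen after seeing the data, the 90th percentile of the core genes was 4.19 times the 10th, against 6.99 times on the scale of all exons. The order of the core genes thus depended on which exons were counted as the gene.

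Small nucleolar RNAs inside the members were mostly at or near 0, as were those elsewhere. These RNAs guide modification of ribosomal RNA, and 57 of the 1559 in the table lay within a member on the same strand, in 29 host genes (20 large, 9 small). Of the 57, 19 had a level above 0, and 5 had at least 1 (8.77%), against 50 of the other 1502 small nucleolar RNAs in the table (3.33%). The highest inside a member was Snord15b with 21.6 in Rps3, followed by Gm26448 with 18.2 in Rpsa and Snord15a with 11.2 in Rps3. None exceeded its host, which had a level of 40.8 for Rps3 and 85.8 for Rpsa. Core genes hosting such an RNA had a median level of 57.4, against 70.5 in the 47 that hosted none. Capture of RNAs this short by the library preparation was not tested.

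The members were scattered over the genome. Chromosome 7 held 14 of them, 9 of the small subunit, with a median level of 44.8. Rps2 and Rpl3l lay 5890 bases apart on the plus strand of chromosome 17, with levels of 80.7 and 0.788. This pair thus lay close together, with Rps2 somewhat above the core median of 67.4 and Rpl3l below every core gene.

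The start of the mRNA carries the tract through which mTOR controls translation of these genes. It was defined as a C at the first base followed by at least 4 pyrimidines, and was sought at the starts in the RefSeq promoter table for GRCm38.p6, which matched 62 members (56 core genes and 6 paralogs) with 74 starts. The members not matched included Rplp1, Rpl36, Rpl8, Rpl7, Rpl30, Rpl23a, Rps27a, Rpl21, Rpl32, Rpl3, Rps14, Rpl29, Rps29, Rps20 and Rpl17. The windows below run from 15 bases before to 15 bases after an annotated start, and were chosen to show the tract, in capitals, in members of high and low level.
Rps27: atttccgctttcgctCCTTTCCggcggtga
Rpl38: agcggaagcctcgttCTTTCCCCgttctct
Rps6: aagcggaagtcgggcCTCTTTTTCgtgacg
Rpl35: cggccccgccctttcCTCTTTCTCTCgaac
Rpl15: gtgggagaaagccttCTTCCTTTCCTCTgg
Rps10: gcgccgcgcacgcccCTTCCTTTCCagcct
Rps15a: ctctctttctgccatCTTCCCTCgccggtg
In these 7 genes the tract ran for 7 to 13 bases, the longest in Rpl15. Their levels ran from 11.0 for Rps15a to 160 for Rps27, a range set by the choice of the windows. The starts lie at chr3:90213634-90213663 for Rps27, chr11:114668565-114668594 for Rpl38, chr4:86857353-86857382 for Rps6, chr2:39005117-39005146 for Rpl35, chr14:18270972-18271001 for Rpl15, chr17:27635230-27635259 for Rps10 and chr7:118116133-118116162 for Rps15a. Rpl38 is on the plus strand and the other 6 on the minus strand.

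The tract was present at 13 of 66 core starts (19.7%), against 2.51% of all 32851 starts in the table. By gene, 13 of 56 core genes had it, and 0 of 6 paralogs. Core genes with the tract had a median level of 49.3, against 62.1 in core genes without it. When the tract could begin within 5 bases of the annotated start, it was present at 43.9% of core starts and at 18.3% of all starts. By gene, it was then present in 27 of 56 core genes and in 2 of 6 paralogs. A setting of 5 bases thus raised the share in both sets. At this setting the median level was 58.4 in core genes with the tract and 57.4 in those without it. The paralogs with the highest levels are shown next, with no capitals since no tract begins at the annotated base.
Rps27l, first start: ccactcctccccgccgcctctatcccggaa
Rpl7l1: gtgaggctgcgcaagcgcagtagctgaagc
Rpl22l1: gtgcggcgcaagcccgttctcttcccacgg
These lie at chr9:66946071-66946100 (plus strand), chr17:46782642-46782671 (minus strand) and chr3:28805493-28805522 (plus strand). The start of Rpl22l1 is followed after 1 base by a run of pyrimidines. Absence of the tract says only that these letters are not at this base.

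**Figure D5:**
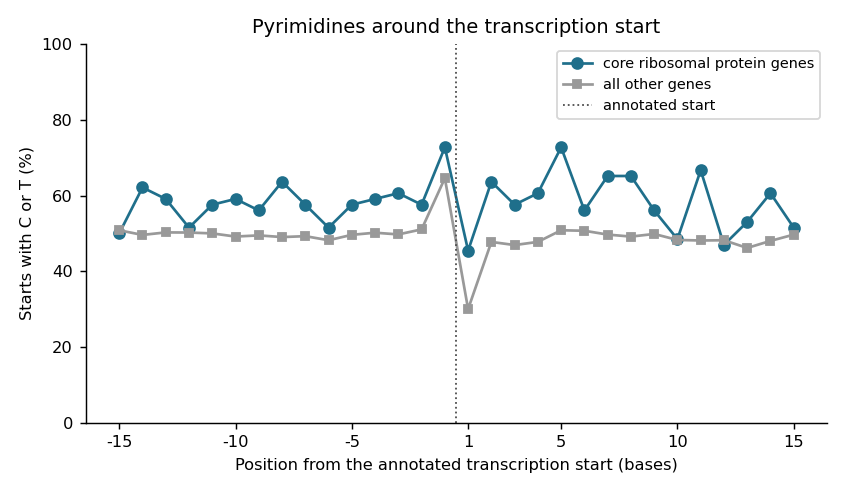
Percent of annotated starts with a C or T at each position from 15 bases before to 15 bases after the start, for the 66 starts of core ribosomal protein genes (circles) and for all other genes (squares). Core genes lie above other genes at most positions, by the most at position 5, with 72.7% against 50.8%.

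Pyrimidines were frequent on both sides of the start of core genes. At the first base, 45.5% of core starts had a C or T, against 30.02% of the starts of other genes. At the fifth base the values were 72.7% in core genes and 50.8% in other genes. At the base just before the start they were 72.7% in core genes and 64.6% in other genes.

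Within the 300 bases around the starts, 250 before and 50 after, 3 motifs were counted on both strands. CCGGAAG, the core letters bound by ETS factors, was present at 36.4% of core starts, against 8.86% of all starts. TCTCGCGA was present at 16.7% of core starts, against 0.995% of all starts. TATAAA, the letters of the TATA box, was present at 9.09% of core starts, against 13.6% of all starts. The motifs share no overlap that would count 1 match for another, and a match is a description of the letters, not a binding site.

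Ribosomal proteins whose names fall outside the rule had levels of 25.6 to 339. Fau, a fusion of a ubiquitin-like protein with a small-subunit protein, had the highest level of these with 339, above every member. Rps3a1, a small-subunit protein, had 196. Rpl36al, a paralog of Rpl36a, had 26.3, against 21.3 for Rpl36a, and Rack1, a signaling scaffold on the small subunit, had 25.6.

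Lists of genes that act on or around the ribosome had lower medians than the core genes. Single initiation and elongation factors lay above the core median. No gene listed for ribosome biogenesis, regulators of ribosomal protein mRNA or mitochondrial ribosomal proteins reached it. All 36 listed initiation and elongation factors had a level of at least 1, with a median of 21.2, against 67.4 in the core genes. Eef1a1, which brings aminoacyl-tRNA to the ribosome, had the highest level of this list with 474, above every member, and Eef2, the translocation factor, had 153. Of 28 genes of ribosome biogenesis, 21 had a level of at least 1, with a median of 2.67 and a maximum of 17.6 for Npm1, the nucleolar protein nucleophosmin.

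Among the 11 listed regulators of ribosomal protein mRNA, the median level was 3.93. Eif4ebp2, which holds back the cap-binding factor, was the highest with 36.4, Larp1 had 13.8 and Mtor had 3.93. Of 75 mitochondrial ribosomal proteins, 66 had a level of at least 1, with a median of 2.79 and a maximum of 32.5 for Mrps21. The median of the cytosolic core genes was 67.4, and no test was made, since both are sets of genes in the same libraries.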

How the data were processed

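The authors sequenced 8 stranded libraries (4 PC-EV-educated, 4 PBS) of total RNA depleted of ribosomal RNA, with 150 bp paired ends, and mapped them to GRCm38. The submitters' processing notes name edgeR, and the authors' methods describe a negative binomial model influenced by it. No source used here names the aligner or the annotation release. The deposited table holds, per gene, the larger group mean of normalized expression and columns of the authors' own comparison (fold changes, p-values, FDR and Bonferroni values), which were not used. The second deposited table, a selection from the first made on those columns, was not used either. No values of single samples were analysed here (0 columns), so no group comparison, test, SD or interval between replicates was computed.

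The unit of the group mean is not named. Multiplied by the union of GENCODE vM21 exons, the lowest values formed 8 steps covering 4278 genes, read as 1 fragment in 1 library of a group of 4, which gave totals of about 42200000 to 53500000 fragments. The step search was tested on data simulated with this unit and groups of 4, and recovered 8 of 8 totals. This checks the search only and cannot show that the group mean has this unit. Exon lengths were had for 40934 of 41018 genes.

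Shared sequence was counted as identical windows of 100 bases between GENCODE transcripts of different genes. The main transcript was the shortest among principal, basic transcripts with the longest coding sequence. Coding sequences were aligned globally with biopython 1.88. Starts and promoters came from RefSeq (GRCm38.p6). The scripting language was Python 3.11.15, with scipy 1.17.1, numpy 2.4.6 and pandas 2.3.3. Named genes were the 10 highest and 10 lowest members, every paralog with its parent and members of listed roles. Genes outside this rule that appear with a value were chosen after their values were seen. Members, lists and motifs were chosen with earlier results of these data known. Some items are not reported here, and 5 members are not drawn in the plot of levels. Alternatives varied the pseudocount (1 or 0.1), the filter on low values (a level of at least 1 or none), the length used, the copies added and the start used.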

Additional observations from a re-analysis of the deposited data

How the results depend on the processing

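The ratio of the large to the small subunit stayed between 0.838 and 0.917 in 7 alternatives, against 0.859 for the medians as reported. The alternatives by means of log2 levels instead of medians gave 0.917 with a pseudocount of 1 and 0.915 with 0.1. The members' share of the summed level was 1.33% by level times exon length and 1.68% with the ribosomal proteins outside the name rule, but 3.16% without the 10 most abundant genes, since the sum it is a share of was then smaller. The start tract, at 19.7% of core starts, was found at 43.9% when it could begin within 5 bases, and at 10.7% (6 of 56 core genes) at the first base of the main GENCODE transcript, against 2.14% of all protein-coding transcripts. In all, 18 of 30 alternatives moved a value little and 12 moved it further, 9 of them paralog percentages. The GENCODE start and the main transcript length were chosen after seeing the data. No paired analysis was possible because no values of single samples were analysed here, and for the same reason leaving out a replicate was not run. At the depth of these libraries, 1 fragment is about the lowest level a gene can show, so Rpl10l, at about 3 fragments, is limited by counting.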
